A study of Mus musculus with 18 samples.

Results

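The genes described here make cholesterol and fatty acids in the cell. They are 31 genes of the 43346 in the count table, chosen by name from what is known of the pathway and grouped by role: 7 genes of the mevalonate pathway, 11 that lead from squalene to cholesterol, 6 that regulate the pathway or carry sterol, and 7 of fatty acid synthesis. Earlier results of these data were known when they were chosen. All 31 were among the 26717 genes tested and also passed edgeR's stricter filter on low counts. The lowest count of any of them in any library was 16.

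RNA was measured in Lgr5+ cells of the small intestine (SI) and the large intestine (LI), sorted from dissociated crypts at 3 levels of GFP. All mice were C57BL/6 animals carrying Lgr5_eGFP_Iris_creERT2 (the spelling of the labels), untreated and 8 to 20 weeks old by the labels, so that the inserted GFP and Cre are common to every group. High GFP stands for the crypt centre, medium GFP for the border, and low GFP for cells beyond row 3, called row >3. There were 3 libraries in each of the 6 groups. The GFP is expressed from the Lgr5 locus, so position in the crypt was not observed but read from a gate on the cells' GFP, with Epcam as the epithelial marker. The comparisons ask whether cells at these positions, and at the same position in the 2 sites, differ in their transcripts.

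Cholesterol is built from acetyl-CoA. The mevalonate pathway turns acetyl-CoA into farnesyl diphosphate, a pair of farnesyl units is joined to squalene, and squalene is closed into a ring and trimmed to cholesterol. Fatty acid synthesis starts from the same acetyl-CoA. Both branches are controlled by the sterol regulatory element-binding proteins SREBP1 and SREBP2, encoded by Srebf1 and Srebf2, which are held in the endoplasmic reticulum by SCAP and the INSIG proteins when sterol is plentiful and released as transcription factors when it is scarce. In the intestine, the epithelium both takes up cholesterol and fat from food and makes its own.

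Because the target genes of these factors carry short motifs before their start sites, the 250 bases upstream of the RefSeq start (GRCm38.p6) were searched on both strands. Of the 31 genes, 25 had an entry. Sqle, Fdft1, Fdps, Stard4, Scd1 and Scd2 had none. Below are 5 of these windows, from genes that rose from centre to row >3 in the SI and whose window lies wholly outside the gene body in GENCODE M21. Capitals mark TCACNCCA (a core of the sterol regulatory element), CCAAT (the box bound by NF-Y) and GGGCGG (the GC box bound by Sp1), each on either strand. The sequences read 5′ to 3′ on the strand of the gene.
Hmgcs1 (chr13:119690101-119690350, plus strand): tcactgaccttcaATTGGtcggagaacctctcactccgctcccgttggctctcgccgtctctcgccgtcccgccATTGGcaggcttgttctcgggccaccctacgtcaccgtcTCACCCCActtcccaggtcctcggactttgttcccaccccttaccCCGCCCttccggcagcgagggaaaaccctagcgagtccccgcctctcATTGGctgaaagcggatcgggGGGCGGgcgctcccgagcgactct
Mvk (chr5:114444019-114444268, plus strand): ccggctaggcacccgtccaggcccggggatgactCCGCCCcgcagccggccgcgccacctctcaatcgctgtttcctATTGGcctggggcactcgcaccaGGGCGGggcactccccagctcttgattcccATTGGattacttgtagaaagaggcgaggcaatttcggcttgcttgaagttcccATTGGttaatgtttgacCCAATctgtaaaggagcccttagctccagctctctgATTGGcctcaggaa
Mvd (chr8:122443423-122443672, minus strand): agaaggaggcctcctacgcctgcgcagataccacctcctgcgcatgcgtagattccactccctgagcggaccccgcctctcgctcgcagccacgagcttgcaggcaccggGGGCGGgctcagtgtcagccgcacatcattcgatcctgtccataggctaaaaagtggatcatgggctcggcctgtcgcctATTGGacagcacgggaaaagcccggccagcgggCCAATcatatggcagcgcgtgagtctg
Sc5d (chr9:42264301-42264550, minus strand): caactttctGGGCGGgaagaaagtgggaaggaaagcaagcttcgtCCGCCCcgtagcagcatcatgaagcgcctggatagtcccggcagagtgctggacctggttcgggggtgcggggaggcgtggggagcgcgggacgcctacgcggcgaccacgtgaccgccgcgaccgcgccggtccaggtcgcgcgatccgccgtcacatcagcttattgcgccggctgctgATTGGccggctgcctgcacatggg
Fasn (chr11:120824548-120824797, minus strand): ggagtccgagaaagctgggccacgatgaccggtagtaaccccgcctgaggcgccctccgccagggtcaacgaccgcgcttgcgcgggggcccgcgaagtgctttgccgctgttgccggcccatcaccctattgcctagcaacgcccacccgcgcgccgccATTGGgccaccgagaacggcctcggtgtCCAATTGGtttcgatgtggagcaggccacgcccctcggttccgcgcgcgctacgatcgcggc

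The Hmgcs1 window held all 3 motifs, with the sterol core from 137 to 130 bases before the start. The Mvk window held 5 CCAAT boxes and 2 GC boxes. In the Fasn window, 2 of the 3 CCAAT boxes overlap on opposite strands. Counting a gene once if any of its windows held the motif, TCACNCCA was present in 3 of 25 genes (12%), which were Hmgcs1, Msmo1 and Srebf2, and in 4.2% of the 27025 genes with an entry. CCAAT was present in 19 of 25 (76.0%), against 37.5% of all genes and 40.5% of the 7708 that were expressed at a mean of 5 CPM or more here, where CPM is a count scaled by library total and TMM factor (a factor that balances the libraries' composition). GGGCGG was present in 20 of 25 (80%), against 35.4% and 66.2%. These are matches of letters in a window, and binding was not measured.

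The libraries held between 8312093 and 31940965 counts, of which the 31 genes took 0.102 to 0.265 percent. Epcam, which marks epithelial cells, was between 14653 and 24706 normalised counts (raw counts divided by the authors' factor for that library) in every library. Lgr5 fell with the gate, from 5252, 4191 and 2434 normalised counts in SI centre to 28.1 to 279.6 in SI row >3 libraries, and the SI border libraries spanned 156.7 to 2028. The border library of replicate 3, at 156.7, lay within the row >3 range, below the row >3 libraries of replicates 1 (169.6) and 2 (279.6), and was kept as border by its label. The SI libraries of replicate 3 stand apart: 9 genes of the large intestine summed to 87.9 to 158.2 CPM in the SI libraries of replicates 1 and 2, to 396.5, 1537 and 2350 CPM in centre, border and row >3 of SI replicate 3, and to 563.6 to 1708 CPM in LI libraries. Counts of calls of the 31 genes within the SI, and between the sites at each position, are therefore also given without those 3 libraries. The fold changes of some of these genes are given in the same way. The Y-linked Ddx3y was counted 599 to 1419 times in replicate 2 and no more than 1 time in any other library, at both sites, so replicate 2 also differs from the others in sex.

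Within each site, libraries with the same replicate number deviated together, as described in the processing, and a fit with the replicate number as a block is therefore given beside the main one where it changes a result. The study's methods call the replicates biological, and its captions count mice as their replicates but differ in the number of mice. Which mouse gave which library, and whether both sites came from the same mice, is not given in the sources used here. The p-values measure the spread between these libraries.

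In the SI, most genes of cholesterol synthesis rose from centre to row >3, 13 of the 18 enzymes of the mevalonate pathway and of the steps from squalene on passing the test. Of the 31 genes, 19 were higher in row >3 and none was lower, at an adjusted p under 0.05 in edgeR's quasi-likelihood test. By the same test 13.2% of all genes were called, 7.35% as higher, and of the 10223 genes at a mean CPM of 5 or more, 15.4% were called as higher. In all, 30 of the 31 log2 fold changes were above 0, with a median of 0.90, against 0.04 over those 10223 genes. The genes called were 4 of 7 in the mevalonate pathway, 9 of 11 from squalene to cholesterol, 3 of 6 regulators and carriers, and 3 of 7 in fatty acid synthesis. In 20 of the 31, every row >3 library lay above every centre library, as it did for 12.8% of all genes and 24.7% of the 10223 genes, and in none did all lie below, as they did for 12.1% and 21.4%.

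**Figure D1:**
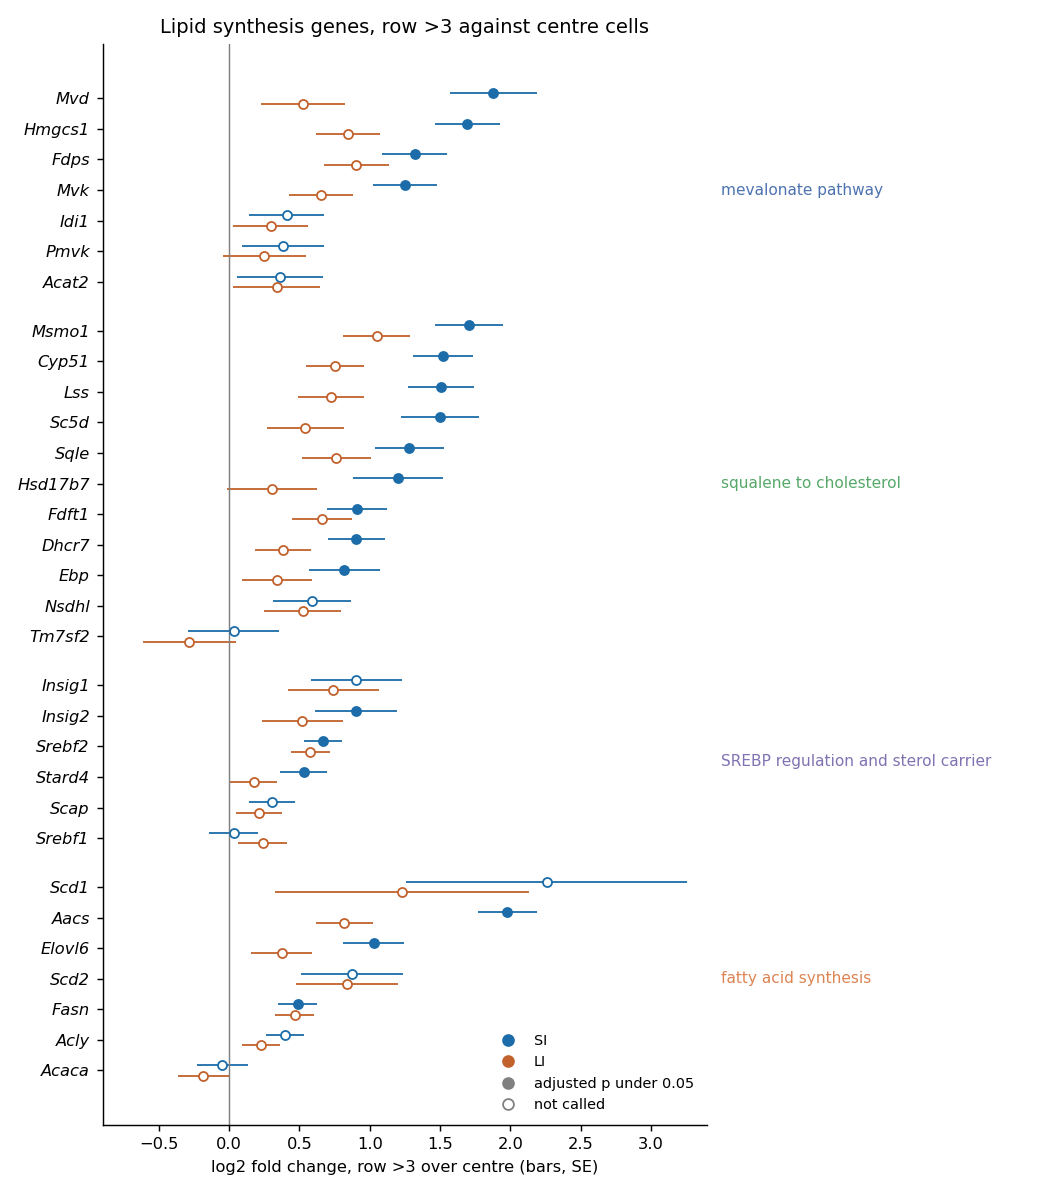
Log2 fold change of row >3 over centre (x axis, bars are the SE of the fit) for each of the 31 genes (y axis, ordered by role and by the SI value), with SI in blue and LI in orange, filled where the adjusted p was under 0.05. In the SI the filled points reach from 0.49 (Fasn) to 1.98 (Aacs), and in the LI no point is filled.

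The mevalonate pathway begins with the joining of acetyl-CoA units. Hmgcs1, the synthase that makes HMG-CoA, had 1446, 1671 and 1072 normalised counts in the SI centre libraries of replicates 1, 2 and 3, 1894, 1980.4 and 2430.0 in border and 4959, 5441 and 3141 in row >3 libraries. All 3 row >3 libraries were above all others of the SI, with replicate 3 the lowest of them. The log2 fold change of row >3 over centre was 1.70 ± 0.23 (SE, n = 3 against 3, adjusted p = 7.97e-05 in edgeR's test), a 3.24-fold rise. In the LI, Hmgcs1 had 1041, 1409 and 1547 normalised counts in centre, 1378, 1800.3 and 1988 in border and 1848, 2428 and 2909 in row >3 libraries. There too the row >3 libraries were above the centre libraries, although the highest border library exceeded the lowest of row >3.

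Mvk, the kinase that phosphorylates mevalonate, had 213, 201 and 147 normalised counts in SI centre, 349, 207 and 272 in border and 458, 498 and 375 in row >3. The row >3 libraries did not overlap either other group, and the log2 fold change over centre was 1.25 ± 0.23 (adjusted p = 0.000743). Mvd, the decarboxylase that yields isopentenyl diphosphate, had 98.0, 91.2 and 117 in SI centre, 153, 124 and 303 in border and 326, 488 and 306 in row >3 libraries. Its border library of replicate 3 was close to the lowest row >3 library, and row >3 exceeded centre by a log2 fold change of 1.88 ± 0.31 (adjusted p = 0.000354), or 3.67-fold. Fdps, which makes farnesyl diphosphate, had 625, 542 and 359 in SI centre, 859, 622 and 942 in border and 1461, 1525 and 810.2 in row >3. Here the row >3 library of replicate 3 lay below 2 of the border libraries, while all 3 lay above centre, with a log2 fold change of 1.32 ± 0.23 (adjusted p = 0.000617).

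In the LI, the same 3 genes spanned smaller ranges. Mvk had 213, 211 and 189.8 normalised counts in centre, 209, 218 and 232 in border and 386, 279 and 299 in row >3. Mvd had 226, 144 and 141 in centre, 232, 167 and 212 in border and 262, 219 and 245 in row >3. Fdps had 503, 465 and 446, 504, 589 and 634 and 865, 793 and 981 in the same order of groups. For Mvk and Fdps the LI row >3 libraries were all above the centre and border libraries, and for Mvd they overlapped both. The other genes of the mevalonate pathway, Acat2 (acetyl-CoA acetyltransferase), Pmvk (the kinase that follows Mvk) and Idi1 (the isomerase of isopentenyl diphosphate), did not pass the test in either site. Their log2 fold changes in the SI were 0.36, 0.38 and 0.41. Leaving out 1 library moved Acat2 between 0.046 (without centre replicate 3) and 0.58 (without centre replicate 1), Pmvk between 0.16 (without centre replicate 3) and 0.54 (without row >3 replicate 3) and Idi1 between 0.21 and 0.66 (without row >3 replicates 1 and 3). Their values in the 18 libraries ranged from 83.9 to 256, 183 to 475 and 214 to 555 normalised counts. Acat2 has a near-identical copy, Acat3, so its reads cannot be assigned with certainty.

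**Figure D2:**
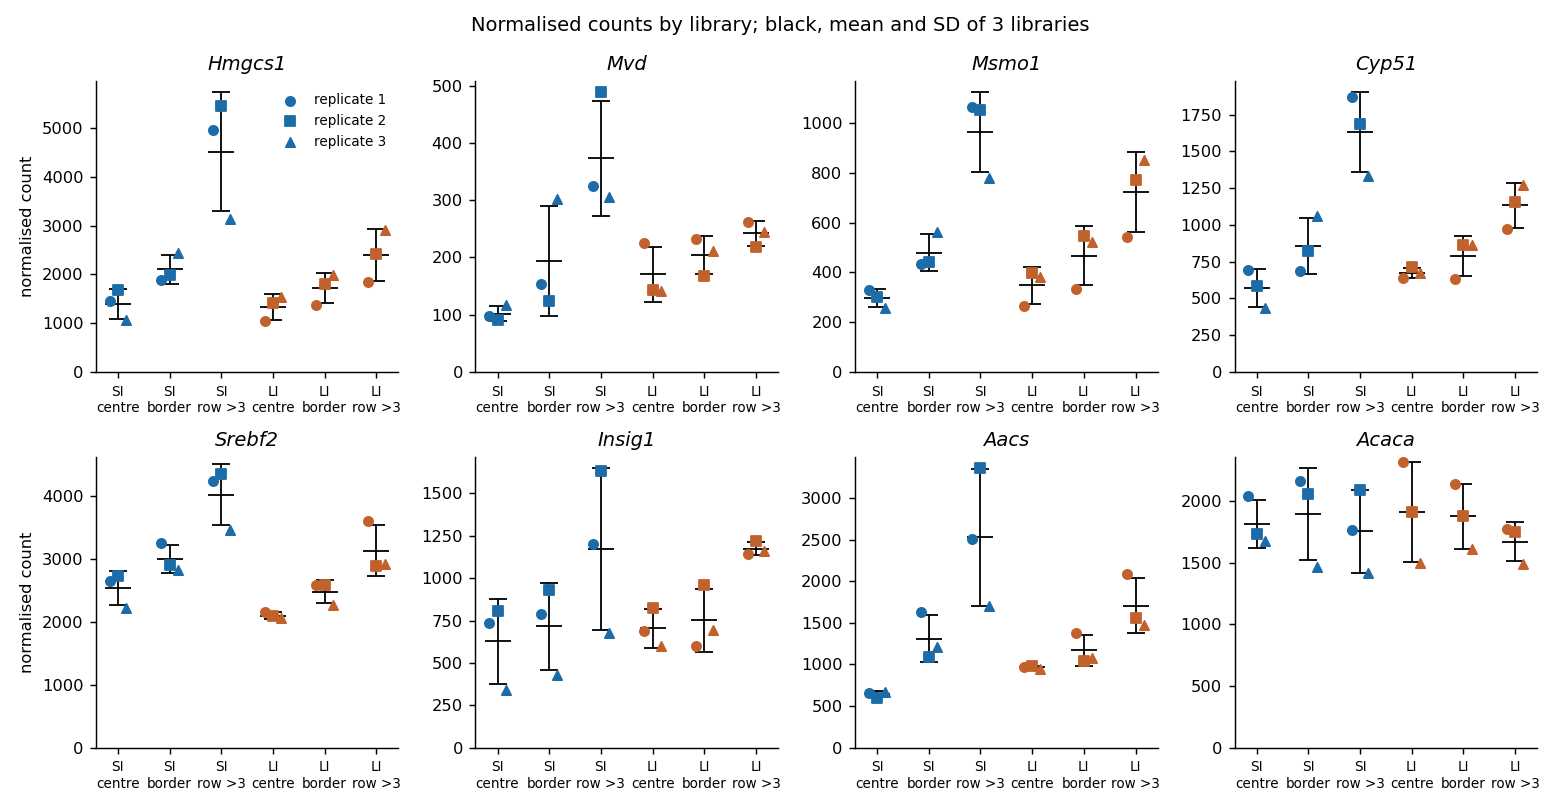
Normalised counts (y axis, from 0) of 8 of the genes in each library by group (x axis), with SI in blue, LI in orange, a marker for each replicate number, and the mean and SD of 3 libraries in black. Hmgcs1 and Aacs reach 5441 and 3357 in SI row >3, where replicate 3 lies below the others, and Acaca stays between 1413 and 2312 in all groups.

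The next genes lead from farnesyl diphosphate to cholesterol. Fdft1, the squalene synthase, had 1044, 1079 and 749.8 normalised counts in SI centre, 1266, 1125 and 802 in border and 1987, 2175 and 1222 in row >3. Sqle, the epoxidase that oxidises squalene, had 629.6, 714 and 304, 760.3, 788 and 690.1 and 1665, 1466 and 857 in the same groups. Lss, the cyclase that forms lanosterol, had 509.7, 517 and 326, 661, 687 and 731 and 1327, 1685 and 823. In these 3 genes all row >3 libraries were above all centre libraries, and in each of them replicate 3 was the lowest at centre and at row >3. Their log2 fold changes over centre were 0.91 ± 0.21, 1.28 ± 0.25 and 1.51 ± 0.24 (adjusted p = 0.00588, 0.00122 and 0.000243).

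Cyp51, which removes the first methyl group from lanosterol, had 691, 583 and 436 normalised counts in SI centre, 689, 822 and 1064 in border and 1872, 1687 and 1335 in row >3. Msmo1, an oxidase of the next methyl groups, had 329.8, 300.2 and 258 in centre, 432, 443 and 564 in border and 1063, 1051 and 779 in row >3. For both, the lowest row >3 library exceeded the highest border library. The fold changes over centre were 1.52 ± 0.21 for Cyp51 (adjusted p = 8.3e-05) and 1.71 ± 0.24 for Msmo1 (adjusted p = 9.78e-05) on the log2 scale, or 2.87-fold and 3.27-fold. Cyp51 overlaps Akap9 on the opposite strand, which reached a group mean of 708 CPM, and Fdft1 overlaps Ctsb at 151 CPM. The library kit keeps the strand, but the strand setting of the counting is not given in the sources used here.

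Hsd17b7, the ketoreductase of the sterol ring, had 131, 139 and 102 normalised counts in SI centre, 191, 167 and 225 in border and 332, 256 and 264 in row >3. Ebp, the sterol isomerase, had 320.1, 276 and 297, 272, 367 and 322 and 594, 544 and 434, so that border and centre overlapped and row >3 stood above both. Sc5d, a desaturase, had 226, 224 and 146, 283, 373 and 289 and 706, 558 and 415. Dhcr7, which reduces 7-dehydrocholesterol to cholesterol, had 381, 287 and 251, 406, 336 and 507 and 555, 569 and 593. In all 4 genes the row >3 libraries were above those of centre and border, although the Dhcr7 value of border replicate 3 was close to them. The rises over centre were 1.20 ± 0.32 (adjusted p = 0.0144) for Hsd17b7, 0.82 ± 0.25 (0.0312) for Ebp, 1.5 ± 0.28 (0.000884) for Sc5d and 0.90 ± 0.20 (0.00446) for Dhcr7. Over the 26 alternative fits described below, Ebp was called in 20 and Hsd17b7 in 24. Hsd17b7 was not called without SI centre replicate 3 or without SI row >3 replicate 1.

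Only 2 of the 11 genes from squalene to cholesterol were not called in the SI. Nsdhl, a dehydrogenase that acts with Msmo1, had 217, 239 and 260.2 normalised counts in centre and 344, 349 and 386 in row >3. Its row >3 libraries lay above those of centre, the log2 fold change was 0.59 ± 0.28 (adjusted p = 0.197), and with the replicate block the adjusted p was 0.0244. Tm7sf2, a sterol reductase, had 168, 218 and 139 in centre and 199.7, 132 and 206 in row >3, with overlapping groups and a log2 fold change of 0.03 ± 0.33. Tm7sf2 shares its strand with the overlapping Vps51, at up to 22.8 CPM.

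In the LI, the 9 genes called in the SI gave the following values. Fdft1 had 729, 705 and 755 normalised counts in centre, 704, 878 and 959.6 in border and 973, 1155 and 1324 in row >3. Sqle had 566, 486 and 493, 602, 628 and 692 and 794, 869 and 945. Both were higher in every row >3 library than in any centre or border library. Lss, with 570.4, 378 and 361 in centre, 537, 503 and 482 in border and 886, 648 and 613 in row >3, and Cyp51, with 639.8, 712 and 669.9, 632, 862 and 867 and 970.1, 1154 and 1274, showed the same separation. Msmo1 had 263, 398 and 383, 332, 548 and 521 and 544, 773 and 851, where the row >3 library of replicate 1 lay below the border library of replicate 2. For all 5, row >3 and centre libraries of the LI did not overlap.

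The remaining genes of this branch were less separated in the LI. Hsd17b7 had 89.4, 178 and 164 normalised counts in centre, 164, 229.6 and 204 in border and 94.7, 245 and 195 in row >3. Ebp had 283, 406 and 489, 274, 432 and 509.9 and 406, 519 and 572, and Sc5d had 221, 246 and 281, 193, 333 and 318 and 262, 342 and 488. In these 3 genes, row >3 overlapped centre, and replicate 1 had the lowest row >3 value. Dhcr7 had 418, 481 and 460.5 in centre, 498, 630.1 and 602 in border and 528, 633 and 608 in row >3, with row >3 above centre and level with border.

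Among the regulators, Srebf2 rose and Srebf1 did not pass the test. Srebf2, which encodes the factor that acts mainly on cholesterol genes, had 2651, 2728 and 2225 normalised counts in SI centre, 3256, 2906 and 2829 in border and 4234, 4352 and 3466 in row >3. The 3 SI groups did not overlap, and row >3 exceeded centre by 0.67 ± 0.14 on the log2 scale (adjusted p = 0.00202), or 1.59-fold. In the LI, Srebf2 had 2161, 2085 and 2054 in centre, 2582, 2580.1 and 2264 in border and 3594, 2882 and 2912 in row >3, again with no overlap between groups. Srebf1, whose products act mainly on fatty acid genes, had 1393, 1085 and 1003 in SI centre, 1549, 1244 and 1069.8 in border and 1250.2, 1314 and 988 in row >3, and 1174, 1021 and 963, 1423, 1275 and 1007 and 1375, 1238 and 1094 in the LI groups. All of these groups overlapped, and the log2 fold change in the SI was 0.03 ± 0.18. The isoforms of Srebf1 were not counted separately, and the gene overlaps Rai1 on the opposite strand at up to 81.7 CPM.

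Insig1 and Insig2 encode the proteins that hold SREBP in place. Insig1 had 736, 808 and 339 normalised counts in SI centre, 791, 928 and 429 in border and 1204, 1633 and 676 in row >3. In all groups of the SI its lowest value was that of replicate 3, and the row >3 library of replicate 3 overlapped the centre. The log2 fold change was 0.91 ± 0.33 with an adjusted p of 0.0789, which became 4.43e-05 with the replicate block and 0.0051 without the SI libraries of replicate 3. In the LI, Insig1 had 690.4, 826 and 597 in centre, 599.8, 961 and 695 in border and 1144, 1218 and 1160.0 in row >3, where row >3 stood above both other groups. Insig2 had 123, 93.0 and 147 in SI centre, 96.8, 145 and 117 in border and 270.1, 178 and 231 in row >3, a rise of 0.90 ± 0.29 (adjusted p = 0.0451). The rise of Insig2 was called in 15 of the 26 alternative fits. In LI centre, border and row >3, Insig2 had 101, 143 and 195, 150.4, 166 and 165 and 173, 189.8 and 273, with centre and row >3 overlapping.

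Scap, which escorts SREBP to the Golgi apparatus, had 783, 646 and 882 normalised counts in SI centre, 916, 863 and 1026 in border and 893, 876 and 1083 in row >3, and 736, 834 and 854, 908, 963 and 863 and 982, 896 and 933 in the LI groups. It did not pass the test, and the log2 fold change in the SI was 0.30 ± 0.17. Stard4 carries cholesterol between membranes. Stard4 had 2429, 2107 and 1729.9 in SI centre, 2299.8, 2385 and 2457 in border and 3532, 3076 and 2418 in row >3. It was called at 0.53 ± 0.17 (adjusted p = 0.0372), and in 17 of the 26 alternative fits, although the row >3 library of replicate 3 lay below the highest centre library. In the LI groups it had 1969, 2083 and 2087, 1896, 2191 and 2177 and 1877, 2477 and 2552, with row >3 reaching both below and above centre.

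In fatty acid synthesis, 3 of 7 genes rose in the SI. Aacs, which activates acetoacetate for lipid synthesis in the cytosol, had 652, 600.4 and 671 normalised counts in SI centre, 1629, 1091 and 1213 in border and 2512, 3357 and 1708 in row >3. The 3 groups did not overlap, and the log2 fold change of row >3 over centre, 1.98 ± 0.21 (adjusted p = 1.4e-05), was the largest of the genes called, at 3.94-fold. In the LI, Aacs had 967, 983 and 948 in centre, 1383, 1043 and 1079 in border and 2084, 1555 and 1473 in row >3, also in 3 separate groups. Elovl6, the elongase of palmitate, had 547, 655 and 843 in SI centre, 791, 678 and 1079 in border and 1525, 1270.0 and 1369 in row >3, and rose by 1.03 ± 0.22 (adjusted p = 0.00262). Its LI values of 855, 723 and 839, 756, 929 and 1056 and 815, 1035 and 1267 overlapped between the groups.

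Fasn, the fatty acid synthase, had 3789.8, 3719.5 and 3072 normalised counts in SI centre, 4673, 4263 and 4168 in border and 4499.5, 5620.1 and 4677 in row >3. Centre was below both other groups, and the log2 fold change of row >3 was 0.49 ± 0.14 (adjusted p = 0.0206), which without the SI libraries of replicate 3 was 0.44 with an adjusted p of 0.061. In LI centre, border and row >3, Fasn had 4123, 3251 and 3225, 4545, 4208 and 3584 and 5275, 4739 and 4557, with every row >3 library above the others. Acly, which makes cytosolic acetyl-CoA from citrate, had 2952, 3068 and 3137 in SI centre and 3940.1, 4784 and 3302 in row >3. It stayed just above the threshold at 0.39 ± 0.14 (adjusted p = 0.0568), and passed it with the replicate block (0.015) and without the SI libraries of replicate 3 (0.00822).

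Acaca, the acetyl-CoA carboxylase, had values from 1413 to 2312 normalised counts in all 18 libraries, and its log2 fold change of -0.05 ± 0.18 was the only one of the 31 below 0 in the SI. The desaturases Scd1 and Scd2, which make monounsaturated fatty acids, were spread widely between replicates. Scd1 had 42.9, 22.1 and 96.1 in SI centre and 218, 43.4 and 529 in row >3, and Scd2 had 4889, 3220.4 and 1393 and 7094, 6819 and 3467. Their log2 fold changes were 2.26 ± 1.0 (adjusted p = 0.188) and 0.87 ± 0.37 (0.149). Within each replicate number both were higher in row >3, and with the replicate block the adjusted p was 0.000187 for Scd1 and 0.000134 for Scd2. The values were, with the SI libraries of replicate 3 left out, 2.01 (adjusted p = 0.0475) and 0.78 (0.0165). Leaving out 1 library moved Scd1 from 1.30 (without row >3 replicate 3) to 2.94 (without centre replicate 3) and Scd2 from 0.51 (without centre replicate 3) to 1.33 (without centre replicate 1).

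**Figure D3:**
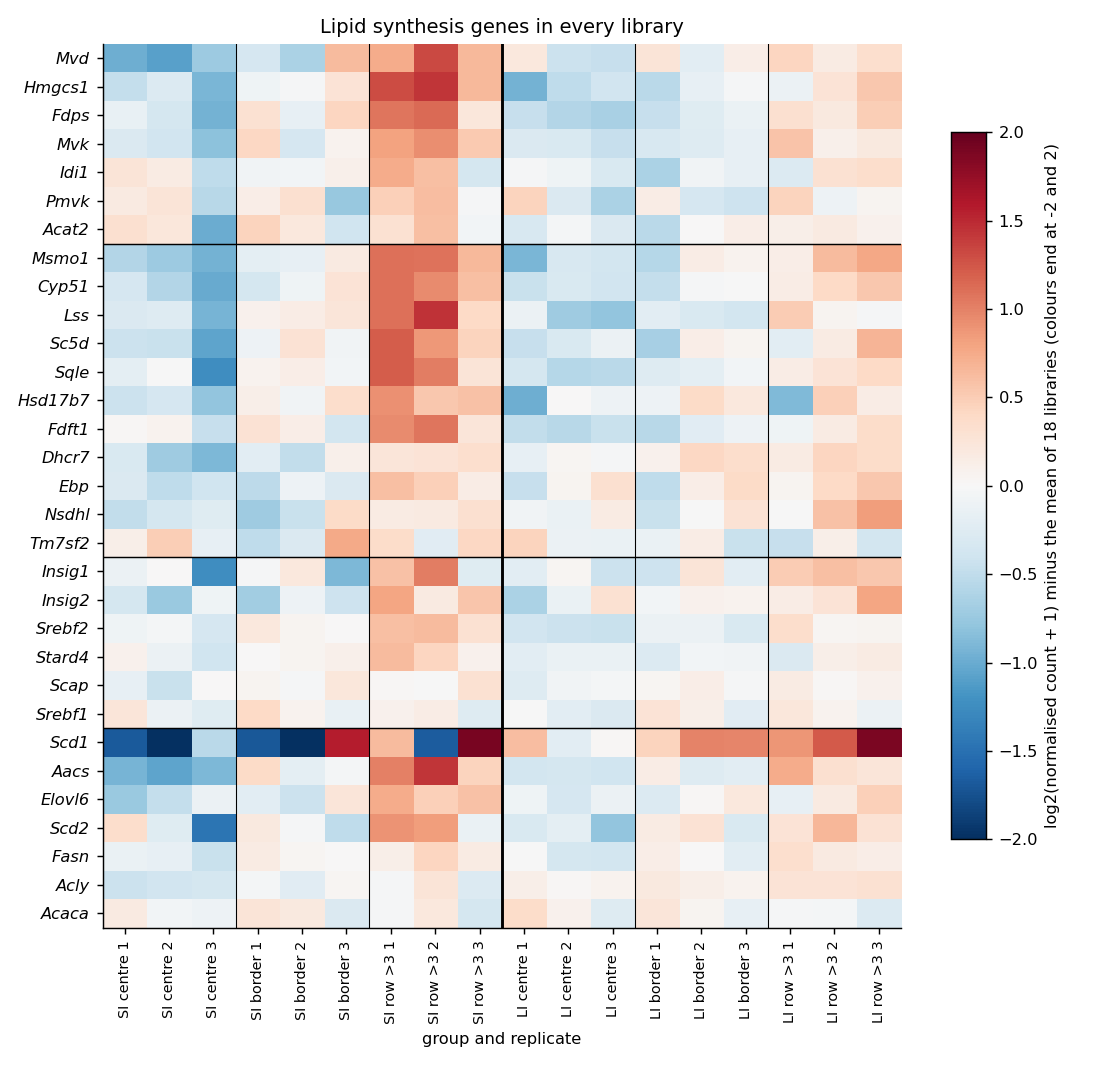
Each library (x axis, by group and replicate) and each of the 31 genes (y axis, by role), coloured by log2(normalised count + 1) minus the mean of that gene over the 18 libraries, with the colours ending at -2 and 2. The red of the SI row >3 libraries covers the genes with the largest fold changes, such as Aacs, Mvd, Msmo1 and Hmgcs1, and is paler in replicate 3.

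Position can also be read within each replicate number. In the SI, 28, 30 and 29 of the 31 genes were higher in row >3 than in centre in replicates 1, 2 and 3, with median log2 differences of 0.89, 0.95 and 0.94, against 0.04, 0.03 and 0.02 over the 10223 genes. In the LI these were 25, 30 and 29 genes, with medians of 0.41, 0.47 and 0.65, against 0.01, 0.02 and 0.04. The row >3 library of SI replicate 3 was lower in most of these genes than the other row >3 libraries, and its own centre library was lower as well. With the replicate block, 24 genes were called in SI row >3 against centre, where 22.8% of all genes were, and without the SI libraries of replicate 3, 22 genes were called, where 17.1% were. Of the 19 genes, 18 were among these 22, Fasn was not, and Insig1, Acly, Scd1 and Scd2 were added. In that fit the log2 fold changes were 1.74 for Hmgcs1, 1.21 for Mvk, 2.10 for Mvd, 1.36 for Fdps, 1.23 for Sqle, 1.56 for Lss, 1.49 for Cyp51, 1.75 for Msmo1, 2.23 for Aacs and 1.22 for Elovl6. The count of 19 fell to 13 when only the library size was used for scaling (12.5% of all genes called, 5.34% as higher), which also moved the median of the 10223 genes from 0.04 to -0.16.

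Border cells of the SI lay between the other groups. The group means of 25 of the 31 genes were in the order centre, border, row >3 in the SI, and those of 25 in the LI, against 34.8% and 32.7% of the 10223 genes. Against centre, 27 of the 31 log2 fold changes of SI border were above 0, with a median of 0.30, but no gene was called, where 0.0112% of all genes were. The shift was largest in replicate 3, with median log2 differences of 0.23, 0.20 and 0.62 in replicates 1, 2 and 3, and without its SI libraries the median of the fit was 0.18, with 25 genes above 0. In edgeR's test 12 of the 31 had an unadjusted p under 0.05, and 1 without those libraries. Counts at an unadjusted p are given here and below without the share of all genes, and none is read as a call. DESeq2 called 1, Aacs, where it called 0.782% of all genes. In edgeR's test Aacs was at 1.02 ± 0.21 (adjusted p = 0.0934), and passed without the SI libraries of replicate 3 (1.07, adjusted p = 0.0117), where 0.963% of all genes did. With the replicate block, Aacs (0.00854), Msmo1 (0.0324) and Hmgcs1 (0.0439) passed, where 2.32% of all genes did. In 10 genes, every border library lay above every centre library, as in 4.15% of all genes and 8.2% of the 10223.

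Row >3 differed from border in 4 genes of the SI, all higher, where 1.61% of all genes were called and 0.842% were higher. These were Hmgcs1 (1.11 ± 0.23, adjusted p = 0.0182), Aacs (0.96 ± 0.20, 0.0188), Cyp51 (0.93 ± 0.21, 0.0284) and Msmo1 (1.01 ± 0.24, 0.035). The median over the 31 genes was 0.66, against 0.02 over the 10223 genes, and 29 were above 0. With the replicate block 16 genes were called (9.78% of all genes), and without the SI libraries of replicate 3, 14 (7.23%). DESeq2 called 12, where it called 4.88% of all genes. None of the 4 was called with scaling by library size only (0.808% of all genes) or with only the groups compared in the fit (0 percent). Leaving out 1 library at a time gave between 0 and 8 genes, with 0 when border replicate 2 or row >3 replicate 1 was left out, while 0.0113% to 5.71% of all genes were called.

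The same direction was seen in the LI at smaller sizes. Row >3 exceeded centre in 29 of the 31 genes by their log2 fold changes, with a median of 0.52, against 0.03 over the 10223 genes. None was called in edgeR's test, where 0.0187% of all genes were, while DESeq2 called 2, Msmo1 and Srebf2, and 0.348% of all genes. At an unadjusted p under 0.05 in edgeR's test there were 13, a count given without the share of all genes and not read as a call. In 18 genes, each row >3 library lay above each centre library, as in 7.57% of all genes and 15.6% of the 10223. The largest log2 fold changes apart from Scd1 were those of Msmo1 (1.05 ± 0.24, adjusted p = 0.193), Fdps (0.91 ± 0.23, 0.282), Hmgcs1 (0.85 ± 0.23, 0.335), Scd2 (0.84 ± 0.36, 0.675) and Aacs (0.82 ± 0.20, 0.264). Leaving out 1 library moved Scd1 in the LI between 0.90 (without row >3 replicate 3) and 1.47 (without centre replicate 1).

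With the replicate block, 13 genes passed in the LI, all higher in row >3, where 2.59% of all genes were called and 1.28% were higher. Among them were Msmo1 (adjusted p = 0.00137), Srebf2 (0.00428), Insig1 (0.00434), Fdft1 (0.00583), Scd2 (0.00606), Hmgcs1 (0.00654), Fasn (0.0144) and Aacs (0.018), followed by Sqle, Fdps, Cyp51, Scd1 and Lss between 0.0188 and 0.0326. All 13 were also higher in SI row >3 with the block. Without the SI libraries of replicate 3, 11 genes were called in the LI (1.9% of all genes), and the cause of this change was not tested. Leaving out 1 library at a time gave none (0 to 0.0863% of all genes).

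In LI border against centre, no gene was called and none had an unadjusted p under 0.05, in edgeR's test or in DESeq2, where 0 percent of all genes were called. The median was 0.22 and 26 of the 31 were above 0. By replicate, 15, 29 and 29 genes were higher in border in replicates 1, 2 and 3, with medians of -0.018, 0.28 and 0.22, and 6 genes did not overlap, as in 2.89% of all genes and 4.72% of the 10223. For LI row >3 against border the median was 0.37, 28 were above 0, 9 had an unadjusted p under 0.05, and edgeR and DESeq2 called none, where 0 percent of all genes were called. In 12 genes the libraries did not overlap, as in 5.39% of all genes and 10.4% of the 10223.

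**Figure D4:**
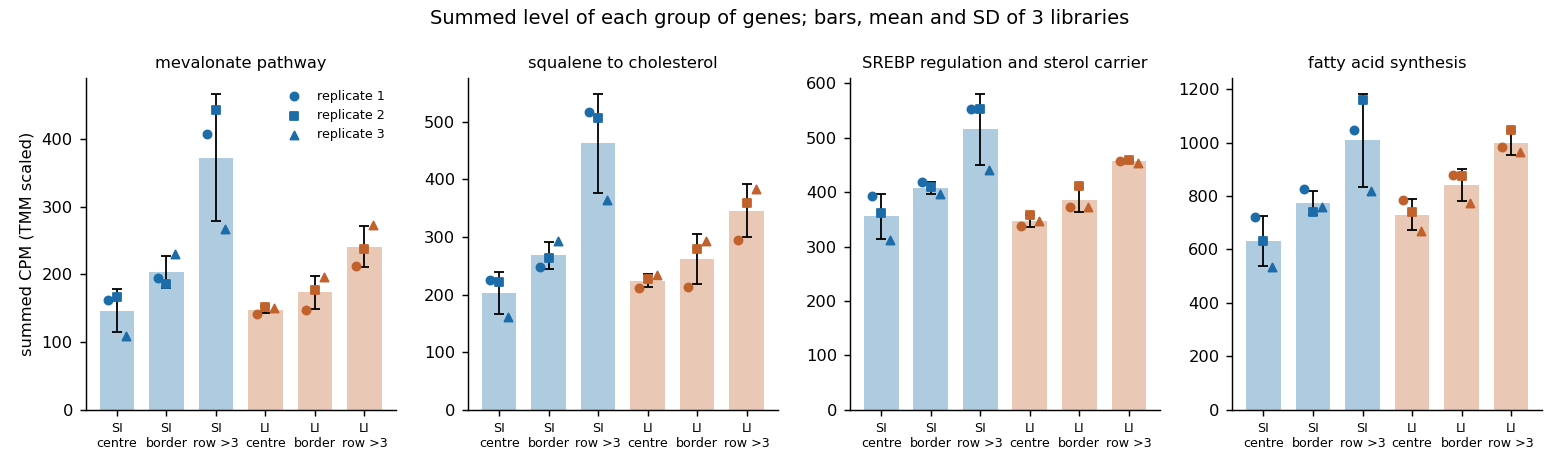
Summed CPM (y axis, TMM scaled, from 0) of the genes of each role in each group (x axis), with bars for the mean and SD of 3 libraries and a marker for each replicate. The mevalonate genes go from 146.2 to 372.8 CPM between centre and row >3 in the SI and from 148.0 to 240.8 CPM in the LI.

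The summed level of all 31 genes was 1335 ± 197 CPM (SD, n = 3) in SI centre, 1654 ± 47.9 in border and 2358 ± 412 in row >3, and 1450 ± 43.4, 1663 ± 69.6 and 2042 ± 81.9 CPM in the LI groups. The SI libraries of replicates 1 and 2 alone were at 1504 and 1383 CPM in centre and 2524 and 2661 in row >3. Without the TMM factor, as a percent of all counts, the 31 genes were lower in SI row >3 replicate 3 (0.154) than in SI centre replicate 1 (0.173). The mevalonate genes summed to 146.2 ± 31.9 CPM in SI centre and 372.8 ± 93.7 in row >3, and to 148.0 ± 5.72 and 240.8 ± 30.3 in the LI. The genes from squalene to cholesterol went from 202.8 ± 36.3 to 462.3 ± 85.5 CPM in the SI and from 223.7 ± 11.2 to 345.6 ± 46.2 in the LI. For both roles the row >3 libraries were above all centre libraries of the same site, while the lowest SI row >3 library, replicate 3, was within the range of LI row >3. Fatty acid synthesis genes summed to 630.3 ± 93.6 and 1008 ± 173 CPM in SI centre and row >3, and to 730.7 ± 57.8 and 998.5 ± 43.6 in the LI. The regulators summed to 355.7 ± 41.4 and 515.3 ± 64.6 CPM in the SI, and to 347.5 ± 10.9 and 456.9 ± 2.53 in the LI.

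Per kilobase of exon, the highest levels as a mean of the 6 groups were those of Acly (38.2 CPM per kb) and Scd2 (37.2), followed by Hmgcs1 (24.2), Stard4 (20.6), Srebf2 (19.8), Fasn (19.1) and Aacs (17.8). The lowest were Tm7sf2 (1.81 CPM per kb), Hsd17b7 (1.82), Scd1 (2.15) and Insig2 (2.36). Hmgcs1 had group means from 14.7 to 47.9 CPM per kb, the highest in SI row >3, while the highest group means of Scd2 and Acly were 51.6 and 47.0.

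Between the sites, none of the 31 genes passed the test in centre or in border. In centre, where 1.99% of all genes were called, 4 had an unadjusted p under 0.05, while DESeq2 called 1, Acly, and 4.64% of all genes. The SI was below the LI in 19 of the 31 log2 fold changes, with a median of -0.13 against -0.08 over the 10223 genes, but in 16 with a median of -0.0019 when the SI libraries of replicate 3 were left out. Acly was at -0.51 (adjusted p = 0.0511) and Aacs at -0.65 (0.108), both lower in every SI centre library than in any LI centre library. In all, 6 genes (19.4%) were separated in this direction, near the 16.8% of the 10223 genes that were (8.65% of all genes), and 1, Srebf2, in the other, as 14.9% of the 10223 and 9.59% of all genes were. Without the SI libraries of replicate 3, Aacs, Acly and Scd1 were called as lower in the SI, where 10.9% of all genes were called. In border, edgeR and DESeq2 called no gene where 1.75% of all genes were called by edgeR and 4.54% by DESeq2, 1 had an unadjusted p under 0.05, and the median was 0.03. Without the SI libraries of replicate 3, Dhcr7 (-0.69, adjusted p = 0.0443) and Scd1 (-3.15, 0.012) were lower in SI border, where 8.1% of all genes were called. With all libraries they were at -0.53 (0.229) and -0.58 (0.916), and leaving out border replicate 2 or 3 of the SI moved Dhcr7 to -0.38 or -0.73 and Scd1 to -0.046 or -3.17.

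In row >3, Hmgcs1 was higher in the SI, at a log2 fold change of 0.85 ± 0.23 (adjusted p = 0.0354), where 4.09% of all genes were called and 2.76% were higher. It was the only one of the 31 called, 9 had an unadjusted p under 0.05, and 23 were above 0, with a median of 0.30 against -0.09 over the 10223 genes. In 5 genes, which were Hmgcs1, Mvd, Cyp51, Hsd17b7 and Elovl6, each SI row >3 library exceeded each LI row >3 library, a share of 16.1%, near the 14.6% of the 10223 genes (10.2% of all genes), and Acly lay below, as did 13.6% and 7.34%. The number of genes called depended on the SI libraries of replicate 3, whereas the call of Hmgcs1 did not. Without them 12 genes were called, where 12.2% of all genes were, and 11 of these were higher in the SI, where 6.8% of all genes were. Their values were 1.11 for Hmgcs1 (adjusted p = 0.000361), 1.07 for Lss (0.000289), 0.85 for Fdft1 (0.000908), 0.84 for Sqle (0.000528) and 0.78 for Aacs (0.00435), with Fdps, Sc5d, Mvd, Cyp51, Stard4 and Srebf2 between 0.45 and 0.79. Scd1 was lower in the SI, at -1.48 (adjusted p = 0.0478). Hmgcs1 was not called when SI row >3 replicate 1 or 2, LI centre replicate 2 or LI row >3 replicate 1 or 2 was left out (its lowest log2 fold change, 0.69, was without LI row >3 replicate 1), nor with scaling by library size only.

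**Figure D5:**
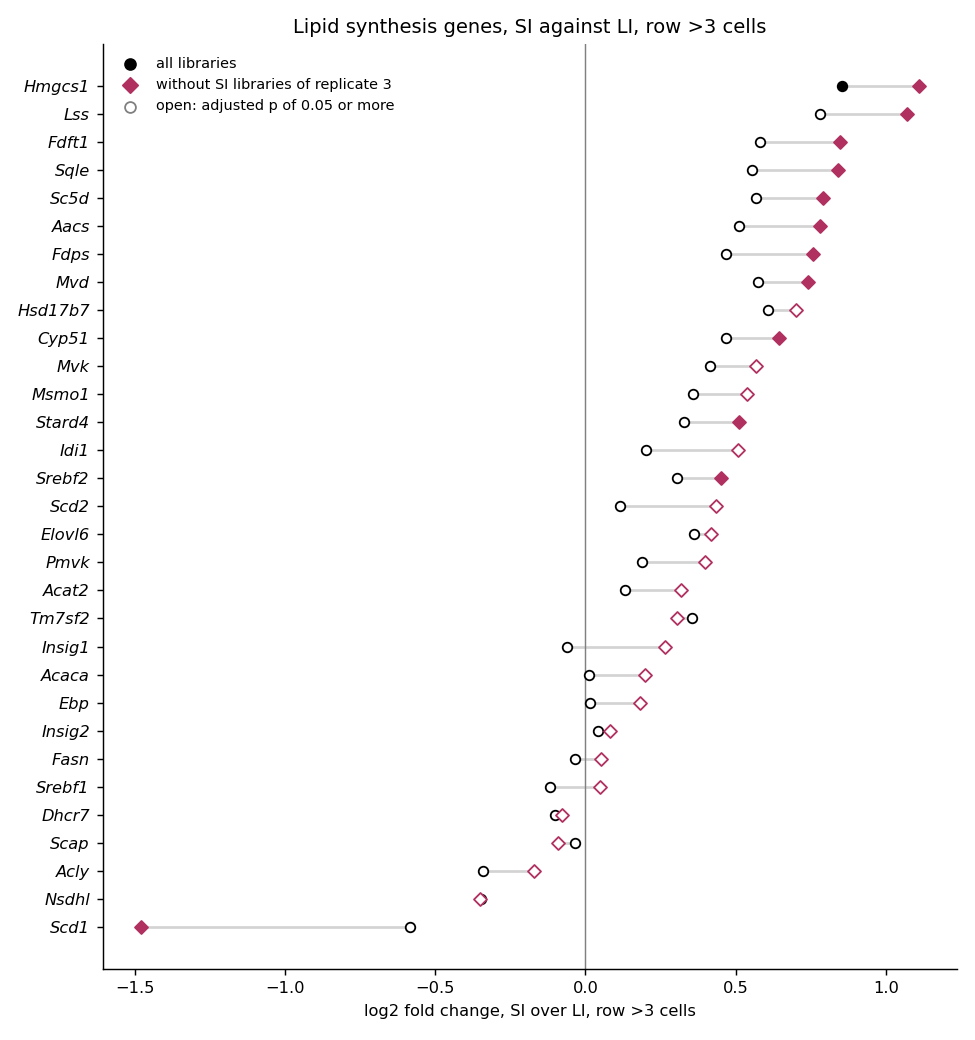
Log2 fold change of SI over LI in row >3 cells (x axis) for each of the 31 genes (y axis), from all libraries (black circles) and without the SI libraries of replicate 3 (red diamonds), filled where the adjusted p was under 0.05. Most diamonds lie to the right of their circles, as for Hmgcs1 (0.85 and 1.11) and Lss (0.78 and 1.07), and that of Scd1 lies to the left.

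Whether the step from centre to row >3 differed between the sites was tested as an interaction. The log2 difference, SI minus LI, was above 0 in 30 of the 31 genes, with a median of 0.38 against 0.01 over the 10223 genes, but none was called by edgeR, where 0 percent of all genes were, and 7 had an unadjusted p under 0.05. DESeq2 called 1, Aacs, and 0.558% of all genes. The largest differences were those of Mvd (1.35 ± 0.43, adjusted p = 0.409) and Aacs (1.16 ± 0.29, 0.193). With the replicate block, Aacs (1.16, 0.0209) and Hmgcs1 (0.85, 0.0487) passed, where 2.32% of all genes did. Without the SI libraries of replicate 3, Aacs (1.42, 0.00249) and Mvd (1.58, 0.0178) passed, where 3.27% did. For the step from centre to border, the difference was above 0 in 26 of 31 genes with a median of 0.13, 1 had an unadjusted p under 0.05, and edgeR and DESeq2 called none (0 percent of all genes in edgeR). With the SI libraries of replicate 3 left out, 17 of the 31 were above 0, with a median of 0.010.

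Other genes of lipid synthesis and of the SREBP axis, 25 of 27 listed being in the table, moved in both directions in the SI. From centre to row >3, 6 of the 25 (24.0%) were called, where 13.2% of all genes were. The 3 that rose were Mid1ip1 (1.47 ± 0.23, adjusted p = 0.000226), an activator of acetyl-CoA carboxylase, Pgd (0.80, 0.000788), an NADPH-forming enzyme of the pentose phosphate pathway, and Elovl1 (0.98, 0.0115), an elongase. The 3 that fell were Fads1 (-1.74 ± 0.19, 1.4e-05) and Fads2 (-0.78, 0.0111), the desaturases of polyunsaturated fatty acids, and Acss2 (-0.78, 0.013), an acetyl-CoA synthetase. Fads1 had 1714, 1258 and 1271 normalised counts in SI centre, 841, 1196 and 827 in border and 373, 475 and 415 in row >3, in groups that did not overlap between centre and row >3. In the LI, Fads1 had 1749, 1596 and 1433, 1486, 1683 and 1507 and 1106, 1417 and 1302, and none of the 25 was called there. When the SI libraries of replicate 3 were left out, 8 of the 25 were called (17.1% of all genes), with Acacb and Me1 added as higher. The median of the 25 genes in the SI was 0.25, against 0.90 for the 31 genes. Between sites 2, 2 and 3 of the 25 were called in centre, border and row >3, all lower in the SI, where 1.99%, 1.75% and 4.09% of all genes were called. G6pdx, another NADPH-forming enzyme, was among them at all 3 positions (-0.78, -0.83 and -0.86), Mid1ip1 in centre (-1.25), Fads1 in border (-0.77) and row >3 (-1.66), and Acss2 in row >3 (-0.92). Leaving out those libraries, 9, 8 and 9 were called, of which 7 at each position were lower in the SI, where 10.9%, 8.1% and 12.2% of all genes were called.

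Markers of other cells moved with position too, where 7.35% of all genes were called as higher and 5.82% as lower in SI row >3. Markers of absorptive cells summed to 365.6 to 522.2 CPM in SI centre and 1196 to 2603 in row >3, with 6 of 12 higher, and those of secretory cells to 2399 to 12700 and 32170 to 53980 CPM, with 4 of 15 higher. Proliferation genes summed to 2529 to 3573 CPM in SI centre and 968.1 to 2479 in row >3, with 9 of 15 lower. These counts were 7, 10 and 10 without the SI libraries of replicate 3, where 9.97% of all genes were called as higher and 7.09% as lower. The 6 markers of epithelium also summed to more, from 2869 to 4151 CPM in SI centre to 6678 to 7388 in row >3, with Cdh1 (0.44, adjusted p = 0.00744, and up to 0.348 over the alternatives), Krt19 (1.64, 0.00141) and Krt8 (1.64, 0.000375) called as higher, and between 3974 and 4452 CPM in LI centre and 5216 and 6067 in LI row >3. In the LI, absorptive markers went from 436.7 to 479.4 in centre to 531.2 to 616.8 CPM in row >3, secretory markers from 7737 to 12420 to 16370 to 25120 CPM, and proliferation genes from 2859 to 3364 to 1991 to 2773 CPM. In edgeR's test 0 of 12, 0 of 15 and 0 of 15 of these genes were called in LI row >3 against centre, where 0.0187% of all genes were, and 0, 2 and 0 had an unadjusted p under 0.05. Between the sites in row >3, 8 of 12 absorptive markers (median log2 fold change 3.83) and 4 of 15 secretory markers were higher in the SI and 2 of 15 proliferation genes lower, where 2.76% of all genes were called as higher and 1.32% as lower. The absorptive markers were Vil1, Alpi, Sis, Fabp1, Ceacam20, Apoa1, Apoa4 and Krt20. The secretory markers were Itln1, Lyz1, Defa24 and Mmp7, the same 4 that were higher in the SI in centre and in border, where 1.99% and 1.75% of all genes were called. These counts depend on which genes were listed and are not read as numbers of cells. Without the SI libraries of replicate 3, 9 absorptive markers were higher in the SI and 3 (Aqp8, Car4 and Slc26a3) were lower. In that fit 6 secretory markers were higher and 2 proliferation genes lower, where 12.2% of all genes were called and 6.8% as higher. The part of these cells in the changes of the lipid synthesis genes with position and in their difference between the sites was not tested, and in sorted pools fewer cells of a type and less RNA per cell cannot be told apart. Immune markers summed to at most 78.0 CPM and stromal and endothelial markers to at most 16.8 CPM in any library, and Tyrobp was at 0 in all groups. Adipocyte markers summed to 65.4 to 105.7 CPM, with Adipoq, Plin1, Cfd, Lep and Retn at 0 in all SI libraries.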

How the data were processed

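Paired-end libraries of sorted cells (stranded SMART-Seq kit, 270 pg or more of RNA, 100-base reads) were demultiplexed, trimmed, aligned to mm10 with STAR and turned into raw gene counts by the authors, who deposited these counts as 1 table. A further deposited table holds the same counts divided by 1 size factor per library (a signal, called normalised count here) for 24814 genes, and the division was checked to a relative deviation of 9.88e-15. The submitters' processing notes name bcl2fastq, DESeq2 and mm10. For the annotation release and the strand setting, the sources used here give nothing. Gene positions and exon lengths were taken from GENCODE M21 (GRCm38), which holds 42462 of the 43346 identifiers.

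The tests took the raw counts into edgeR 4.0.16 (quasi-likelihood fit with robust prior, TMM factors) in R 4.3.3, with all 6 groups in 1 fit (12 residual degrees of freedom) and the study's filter of a mean count above 0, which left 26717 genes. A Benjamini-Hochberg adjusted p under 0.05 over all genes was a call, in 11 comparisons. The study used DESeq2, and DESeq2 1.42.0 was an alternative here, beside RLE factors, library size only, edgeR's filter on low counts, the groups compared only, leaving out libraries, a replicate block, and edgeR's legacy fit, which was added after the data were seen. The scripts were tested on simulated data. limma 3.58.1 was loaded with edgeR, and figures were made with matplotlib 3.10.9, numpy 2.4.6 and pandas 2.3.3 in Python 3.11.15.

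Same-numbered libraries of a site deviated together from their group means (correlations over 10223 genes at a mean CPM of 5 or more from 0.358 to 0.783 in the SI and from 0.444 to 0.684 in the LI), so the number was used as a block within a site. Between the sites the correlations were 0.184 to 0.271 in border, 0.0196 to 0.314 in centre and -0.0296 to 0.332 in row >3.

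The 31 genes, the gene lists and the alternatives were chosen with earlier results of these data known. Values in each library are given for every gene of the 31 called in any comparison and for the 6 regulators and carriers, and the others are given by ranges and counts. In the lists of other lipid genes the called genes are counted and some of them are named. Some genes of these pathways are not reported here. Precision is limited by 3 libraries per group.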

Additional observations from a re-analysis of the deposited data

Results flagged for a closer look

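The step from centre to row >3 differed between the sites for Aacs and Hmgcs1 in the fit with the replicate block within site. The log2 difference, SI minus LI, was 1.16 for Aacs (adjusted p = 0.0209) and 0.85 for Hmgcs1 (adjusted p = 0.0487), both in edgeR's quasi-likelihood test. Without the block, the differences were 1.16 and 0.85, with adjusted p of 0.193 and 0.542. Within replicates 1, 2 and 3, row >3 exceeded centre on the log2 scale for Aacs by 1.94, 2.48 and 1.35 in the SI and by 1.11, 0.66 and 0.64 in the LI. The corresponding values for Hmgcs1 were 1.78, 1.70 and 1.55 in the SI and 0.83, 0.78 and 0.91 in the LI. Each SI value was above each LI value for both genes, which were flagged from these same libraries, so this adds no further support. The separation was not particular to them. Mvd, for example, had 1.72, 2.41 and 1.38 in the SI and 0.22, 0.60 and 0.79 in the LI, while Acly overlapped. The share of all genes separated in this way was not counted. For Aacs and Hmgcs1, replicate 3, whose SI libraries held genes of the large intestine, had the smallest SI value. Without these 3 libraries the differences were 1.42 (adjusted p = 0.00249) and 0.91 (0.0961).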

How the results depend on the processing

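In SI row >3 against centre, between 13 and 24 of the 31 genes were called over the alternatives, and 11 of the 19 genes were called in all 26 of them. These were Hmgcs1, Mvk, Mvd, Fdps, Lss, Cyp51, Msmo1, Sc5d, Dhcr7, Aacs and Elovl6. The fewest alternatives were those of Insig2 (15), Stard4 (17), Ebp (20) and Fasn (21). Leaving out 1 library at a time gave between 15 and 21 genes (7.45% to 15.4% of all genes). With the replicate block within site, 3 genes were called in SI border against centre, 16 in SI row >3 against border, 13 in LI row >3 against centre and 2 in the difference of row >3 against centre between the sites. With a replicate block over all libraries, 2 were called between the sites in centre and 2 in row >3 (5.61% and 6.89% of all genes). Whether both sites came from the same mice is not given in the sources used here. Correlations of same-numbered libraries between the sites, at the same position, ranged from -0.0296 to 0.332, both in row >3. Without the SI libraries of replicate 3 the counts were 1 in SI border against centre, 14 in SI row >3 against border, 11 in LI row >3 against centre, 3, 2 and 12 between the sites in centre, border and row >3, and 2 in the difference between the sites. DESeq2 gave 1, 12 and 2 for SI border against centre, SI row >3 against border and LI row >3 against centre (0.782%, 4.88% and 0.348% of all genes), 1 and 2 between the sites in centre and row >3 (4.64% and 6.34%), and 1 in the difference (0.558%). With only the groups compared in the fit, SI row >3 against border gave 0 and LI row >3 against centre 5 (0 and 1.03% of all genes). With scaling by library size only, SI row >3 against border gave 0 and the sites in row >3 gave 0 (0.808% and 3.83% of all genes), and with edgeR's filter the sites gave 1 in centre and 2 in row >3 (4.84% and 8.57%). Leaving out 1 library gave 0 to 1 for SI border against centre, 0 to 8 for SI row >3 against border, 0 to 1 and 0 to 5 for the sites in centre and row >3, and 0 to 1 for the difference, where 0 to 1.21%, 0.0113% to 5.71%, 0.679% to 4.66%, 1.43% to 6.34% and 0 to 0.875% of all genes were called. Among the log2 fold changes followed gene by gene, some in row >3 against centre turned their sign. Tm7sf2 in the SI was at -0.18 with library size only, -0.20 without the SI libraries of replicate 3 and -0.12 to 0.22 when leaving out 1 library. Srebf1 in the SI was at -0.16 with library size only and -0.065 to 0.18 when leaving out 1 library. Acaca in the SI was at 0.034 without the SI libraries of replicate 3 and -0.18 to 0.088 when leaving out 1 library. Hsd17b7 in the LI was at -0.0028 to 0.61 when leaving out 1 library. In other comparisons only some of the 31 genes were followed in this way. The cause of these shifts was not tested, and some of the fits also held fewer libraries. Using no filter apart from genes with no count keeps the same genes as the main filter. With 3 libraries a group, smaller differences could not be resolved. The effect of depth was not tested, and the lowest count of the 31 genes was 16.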

Other observations

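Of the 14 genes of fatty acid oxidation and ketone synthesis, which act in the breakdown of lipids, 2 (14.3%) were called in SI row >3 against centre. Of all genes 13.2% were called, and 7.35% as higher. All 14 log2 fold changes were above 0, with a median of 0.74 against 0.04 over the 10223 genes at a mean CPM of 5 or more. Ppara (1.11 ± 0.35, adjusted p = 0.0376 in edgeR's quasi-likelihood test), a transcription factor of fatty acid oxidation, and Acadm (0.71 ± 0.23, 0.0477), a mitochondrial dehydrogenase, were higher, and none of the 14 was called in the LI. When 1 library was left out, Ppara was lowest at 0.84, with SI centre replicate 1 removed, and highest at 1.80, with replicate 3 of that group removed. If all SI libraries of replicate 3 were removed, 8 of the 14 were called as higher (17.1% of all genes were called), among them Ppara (1.68, 0.000248) and not Acadm (0.54, 0.0649), and 1 in the LI. Bdh1, an enzyme of ketone metabolism, was lower in the SI than in the LI in centre (-1.03, 0.0121) and in row >3 (-1.0, 0.00794), and without those libraries at -1.12 and -1.19. Between the sites 1, 0 and 1 of the 14 were called in centre, border and row >3, and without those libraries 13, 12 and 10, all lower in the SI, where 10.9%, 8.1% and 12.2% of all genes were called. Pdk4, a kinase that restrains the use of glucose for energy, had 207 to 251 normalised counts in SI replicate 3, at most 12 in the other SI libraries and 104 to 366 in the LI. Among the genes of cholesterol and fatty acid synthesis, Scd1 was also spread between these libraries, with 20.7 to 218 normalised counts in SI replicates 1 and 2, 218, 43.4 and 529 in the row >3 libraries of replicates 1, 2 and 3, and 122 to 519.6 in the LI.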
